A study of Danio rerio with 36 samples.

Results

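The genes described here are 6 regulators of mitochondrial number and quality: ppargc1a, ppargc1b, esrra, nrf1, tfam and pink1. They were taken by name from the 32520 genes of the count tables and followed through all 12 groups of libraries, and all 6 passed the filter on low counts in every comparison. The group was built around ppargc1b, which was chosen by its difference between sgsh and wild-type brains at 3 months. Values of the 6 genes that use the 3-month libraries are therefore given as a description, with no test.

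The study sequenced RNA from zebrafish that are homozygous for sgshΔex5-6, a deletion in the gene for the lysosomal enzyme sulfamidase, which is altered in the childhood dementia MPS IIIA (Sanfilippo syndrome), and from wild-type fish. Each group had 3 libraries, 36 in all. The groups were sgsh and wild-type whole embryos at 24 hours post fertilization (hpf), larval heads at 5 days post fertilization (dpf), and brains at 2, 3 and 18 months. A further pair of groups held 2-month brains of sgsh and wild-type fish that stably carried the transgene Tg(-3.5ubb:mTagBFP2-T2A-sgsh), which drives sgsh from the ubiquitin promoter ubb. Every embryo and larval library pooled 50 animals and every adult library 3 brains, and adult fish were taken without regard to sex, which the methods state for 3 months. The labels do not say whether the pools of a group came from separate clutches or tanks, so p-values measure the spread between these pools. Adult fish were bled at the tail before dissection.

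PGC-1 coactivators, encoded by ppargc1a and ppargc1b, bind no DNA themselves. They dock on transcription factors such as the orphan nuclear receptor ERRα (esrra) and nuclear respiratory factor 1 (nrf1), and so raise the transcription of nuclear genes for respiration, fatty acid oxidation and the mitochondrial genome's own machinery. Tfam packages mitochondrial DNA and starts its transcription. Pink1 is a kinase that accumulates on damaged mitochondria and recruits Parkin to mark them for mitophagy. These roles are known mainly from mammals.

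Values are read counts per gene, shown as CPM, the counts of a gene in every 1000000 counts of its library. The total count was 24761341 to 26038889 at 24 hpf, 17061799 to 17303538 at 5 dpf, 16200025 to 16594654 at 2 months, 21340728 to 24678514 at 3 months and 22177654 to 22511711 at 18 months. Tests are edgeR's quasi-likelihood test with Benjamini-Hochberg adjustment over all genes of a comparison, and a gene is described as called where the adjusted p was under 0.05. In bulk RNA, fewer cells of a type and less RNA per cell cannot be told apart. The sgsh gene itself was lower in sgsh than in wild-type pools, without overlap, at 5 dpf and at 2, 3 and 18 months (2.11 to 8.21 CPM against 4.08 to 16.3 CPM over these stages). At 24 hpf the pools overlapped, with 6.44 to 8.32 CPM in sgsh and 6.98 to 8.63 CPM in wild-type embryos, and this gene does not check the labels of that stage. With the transgene, sgsh had 113 to 168 CPM in sgsh and 154 to 221 CPM in wild-type brains.

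In the authors' tables, ppargc1b (ENSDARG00000101569) lies on chromosome 14 from 24934736 to 25001584, on the plus strand, with an exonic length of 7415 bases. A 5S rRNA gene lies within its span but overlaps none of its exons. The table gives this ID no symbol, and the name comes from the gene name list supplied for the organism. ppargc1a (ENSDARG00000067829) is on chromosome 7 from 70578985 to 70665965. esrra (ENSDARG00000069266) is on chromosome 21 from 26606741 to 26634099, nrf1 (ENSDARG00000000018) on chromosome 4 from 15081385 to 15103696, tfam (ENSDARG00000063145) on chromosome 12 from 7254112 to 7263958, and pink1 (ENSDARG00000001929) on chromosome 23 from 37466967 to 37480785. None of these 5 overlaps another gene's exons. The processing notes name the build GRCz11, but not for these counts.

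ppargc1b, the coactivator PGC-1β, was higher in sgsh than in wild-type brains at 18 months and was not called at 2 months. At 18 months its level was 181, 192 and 177 CPM in sgsh brains, against 84.2, 104 and 106 CPM in wild-type brains. Every sgsh pool lay above every wild-type pool, at an age where 33.8% of all tested genes had pools that did not overlap. The difference was 1.92-fold (log2 fold change 0.94, standard error (SE) 0.09, adjusted p = 0.0032, edgeR's quasi-likelihood test). Over the 6 fits that each left out 1 library the log2 fold change stayed between 0.84 and 1.00 and the adjusted p of edgeR at or below 0.023. Of the 6 genes, ppargc1b and pink1 were called at 18 months, 1 higher and 1 lower, where 6.72% of all 20116 tested genes were called.

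At 3 months, the contrast it was chosen by, ppargc1b had 167, 202 and 208 CPM in sgsh brains, against 108, 105 and 114 CPM in wild-type brains. These pools did not overlap either, as was so for 25.2% of all tested genes, and the log2 fold change was 0.84 (SE 0.08).

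In the younger brains of 2 months ppargc1b had 122, 117 and 133 CPM in sgsh brains, against 99.6, 134 and 119 CPM in wild-type brains, and the pools overlapped. Its log2 fold change was 0.07, with a 95% interval from -0.14 to 0.28 (adjusted p = 0.87, edgeR's quasi-likelihood test). Whether the genotype difference changed with age was tested as an interaction over the 12 libraries of 18 and 2 months, a comparison added after the data were seen. The log2 fold change of ppargc1b between sgsh and wild type was 0.85 larger at 18 than at 2 months (SE 0.15, adjusted p = 0.015, edgeR's quasi-likelihood test). In this interaction 2 of the 6 genes, ppargc1b and pink1, were called, against 3.71% of all genes. The brains of 2 and 18 months come from tables that were counted separately, so age and table cannot be told apart.

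In embryos and larval heads the pools overlapped. At 24 hpf it had 70.6, 63.4 and 64.9 CPM in sgsh embryos, against 69.2, 69.6 and 64.9 CPM in wild-type embryos. That is a log2 fold change of -0.03 (95% interval -0.12 to 0.06, adjusted p = 0.65, edgeR). In the 5 dpf heads it had 111, 110.5 and 119 CPM in sgsh fish, against 120.3, 118 and 122 CPM in wild-type fish, for a log2 fold change of -0.06 (95% interval -0.15 to 0.02, adjusted p = 0.34, edgeR). Both intervals lie below the value of 18 months.

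**Figure D1:**
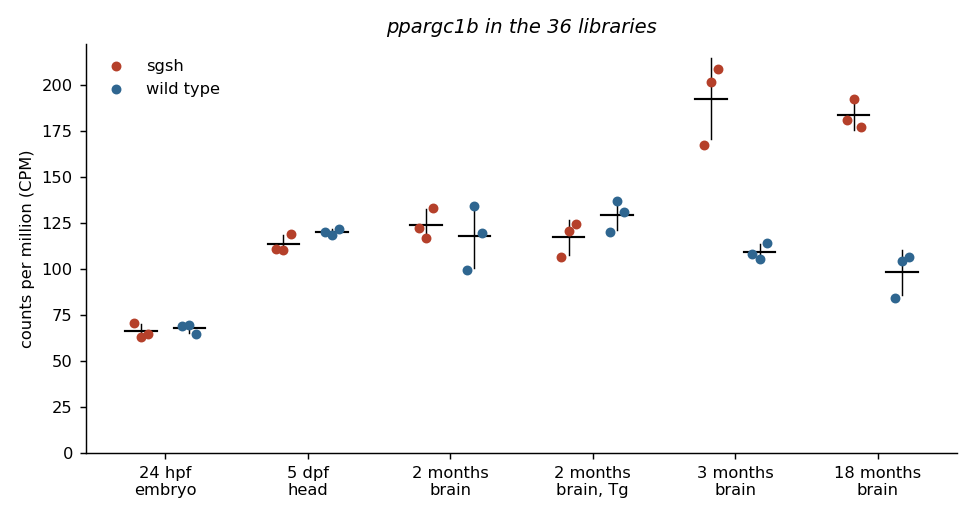
ppargc1b in CPM (vertical axis, from 0) in the 36 libraries by stage, with sgsh left of wild type. Points are libraries, horizontal lines means and vertical lines 1 SD (n = 3). The sgsh brains at 3 and 18 months, at 167 to 208 CPM, lie above all other libraries, which reach 137 CPM.

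The plot of ppargc1b by stage shows that the highest and second highest of the 12 group means belonged to sgsh brains at 3 months (192 ± 22 CPM, SD, n = 3) and 18 months (183 ± 8.1 CPM). These neighbours overlapped. The third, transgenic wild-type brains at 2 months (129 ± 8.3 CPM), did not overlap the second. From there each group overlapped the next down to wild-type brains at 18 months (98.2 ± 12 CPM), and the embryos formed the low end, with 66.3 ± 3.8 CPM in sgsh and 67.9 ± 2.6 CPM in wild type. The ratio of the highest to the lowest group mean was 2.90, and 2.82 with scaling factors computed over all 36 libraries. The 5 dpf and 2-month libraries were counted in tables of their own, with reverse-stranded counting, while no strand setting is stated for the table of the other ages, so levels set across them carry that difference.

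ppargc1a, the coactivator PGC-1α, was not called at any stage tested. In 18-month brains it had 10.01, 8.996 and 7.18 CPM in sgsh fish, against 9.20, 13.8 and 11.9 CPM in wild-type fish. The pools overlapped, and the log2 fold change was -0.37 (95% interval -0.77 to 0.02, adjusted p = 0.19, edgeR). At 24 hpf, 5 dpf and 2 months its log2 fold change between sgsh and wild type was -0.03, 0.04 and 0.08, with 95% intervals that together ran from -0.22 to 0.29. At 3 months the group means were 10.7 ± 1.2 CPM in sgsh and 10.8 ± 0.13 CPM in wild-type brains. Its highest level was that of the 5 dpf heads, with 16.8 ± 1.3 CPM in sgsh and 16.5 ± 1.2 CPM in wild type, and its lowest that of the 24 hpf embryos, with 7.26 ± 0.18 CPM in sgsh and 7.44 ± 0.46 CPM in wild type.

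Per kilobase of exon, the scale on which different genes can be set side by side, ppargc1b exceeded ppargc1a in all 12 groups. The group means of ppargc1b ranged from 8.94 CPM per kilobase in sgsh embryos to 25.95 in sgsh brains at 3 months, and those of ppargc1a from 2.82 in sgsh embryos to 6.52 in sgsh heads at 5 dpf. On this scale tfam was the highest of the 6 at 24 hpf, with 34.0 CPM per kilobase in sgsh and 38.4 in wild type. In sgsh brains at 3 and 18 months ppargc1b was the highest, with 25.95 and 24.7 CPM per kilobase, while in wild-type brains of these ages tfam was, with 22.7 and 20.05.

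esrra, the receptor ERRα and a main partner of both coactivators, lay higher in sgsh than in wild-type brains at 18 months without passing the test. It had 22.7, 21.6 and 18.0 CPM in sgsh brains, against 14.6, 17.5 and 17.9 CPM in wild-type brains. The pools did not overlap, by a margin of under 1 CPM, and the log2 fold change was 0.36 (95% interval 0.09 to 0.62, adjusted p = 0.095, edgeR). At this age 33.8% of all tested genes had pools that did not overlap. In a joint fit with the 3-month libraries, which took part in the choice of the genes, esrra at 18 months did pass the threshold (log2 fold change 0.35). At 3 months esrra had 26.3, 25.8 and 25.5 CPM in sgsh brains, against 19.5, 20.997 and 22.4 CPM in wild-type brains, which gave a log2 fold change of 0.33 (SE 0.07) given as a description. At 2 months it had 29.3, 30.3 and 36.7 CPM in sgsh brains, against 23.5, 26.3 and 29.9 CPM in wild-type brains, which gave a log2 fold change of 0.27 (95% interval 0.05 to 0.49, adjusted p = 0.30, edgeR). The interaction between genotype and age over 18 and 2 months gave 0.07 for esrra (95% interval -0.31 to 0.45, adjusted p = 0.84, edgeR). In embryos the log2 fold change was -0.18 (95% interval -0.33 to -0.02, adjusted p = 0.090, edgeR) and in 5 dpf heads 0.09 (95% interval -0.07 to 0.26, adjusted p = 0.49, edgeR), with overlapping pools at both stages.

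nrf1 encodes the DNA-binding factor that acts on many promoters of respiratory chain genes. It was lower in sgsh embryos at 24 hpf and higher in sgsh heads at 5 dpf. At 24 hpf nrf1 had 62.8, 61.3 and 64.8 CPM in sgsh embryos, against 73.8, 74.0 and 75.7 CPM in wild-type embryos. The pools did not overlap, as was the case for 36.2% of all tested genes, and the log2 fold change was -0.24 (SE 0.04, adjusted p = 0.00010, edgeR's quasi-likelihood test). At 5 dpf it had 65.9, 66.5 and 72.5 CPM in sgsh heads, against 60.6, 59.1 and 57.8 CPM in wild-type heads, a log2 fold change of 0.22 (SE 0.05, adjusted p = 0.0050, edgeR). Again no sgsh pool reached into the range of wild type, which held for 31.4% of all tested genes. Both calls were kept in all fits with another normalization, filter, block or tool and in all fits without 1 library. Embryos and heads are different tissues in separately counted tables, and the difference between the contrasts was not tested.

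In adult brains nrf1 was not called. The log2 fold change was 0.14 at 2 months (95% interval -0.0042 to 0.28, adjusted p = 0.46, edgeR) and -0.04 at 18 months (95% interval -0.20 to 0.11, adjusted p = 0.69, edgeR). At 3 months it had 34.4, 32.6 and 34.1 CPM in sgsh brains, against 37.2, 37.5 and 36.2 CPM in wild-type brains, which did not overlap, as was so for 25.2% of all tested genes. The group means of nrf1 fell into a band of 59.2 to 74.5 CPM in embryos, heads and 2-month brains and a band of 33.0 to 37.0 CPM in brains of 3 and 18 months, and no library of the lower band reached the higher. Brains of 2 months were counted separately from those of 3 and 18 months, so between them age and table cannot be told apart.

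tfam, whose product packages mitochondrial DNA and starts its transcription, fell in sgsh embryos. At 24 hpf it had 46.6, 46.5 and 45.5 CPM in sgsh embryos, against 53.3, 53.8 and 49.2 CPM in wild-type embryos. The pools did not overlap, as for 36.2% of all tested genes, and the log2 fold change was -0.17 (SE 0.04, adjusted p = 0.0069, edgeR). Without wild-type replicate 2 the adjusted p of edgeR was 0.053. Its log2 fold change was 0.09 at 5 dpf, -0.06 at 2 months and 0.04 at 18 months, with 95% intervals that together ran from -0.22 to 0.24. In adult brains its group means stayed between 27.1 and 31.3 CPM over all 8 groups.

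pink1, the mitophagy kinase, had the largest genotype difference of the 6 genes, in 18-month brains. There it had 33.3, 31.0 and 28.1 CPM in sgsh brains, against 77.0, 56.4 and 85.0 CPM in wild-type brains. No sgsh pool came near the lowest wild-type pool, and the log2 fold change was -1.20 (SE 0.15, adjusted p = 0.0058, edgeR's quasi-likelihood test), a level in sgsh of 0.435 times that of wild type. Pools did not overlap for 33.8% of all tested genes at 18 months. Over the fits without 1 library the log2 fold change stayed between -1.36 and -1.08 and the adjusted p of edgeR at or below 0.044.

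At 2 months the direction of pink1 was the other one. It had 40.6, 44.3 and 47.3 CPM in sgsh brains, against 35.2, 34.9 and 38.4 CPM in wild-type brains. The pools did not overlap, which held for 15.5% of all tested genes, and the log2 fold change of 0.28 (95% interval 0.12 to 0.44) did not pass the test (adjusted p = 0.12, edgeR). The interaction between genotype and age over 18 and 2 months was -1.50 (SE 0.18, adjusted p = 0.0024, edgeR). At 3 months pink1 had 33.1, 26.1 and 37.5 CPM in sgsh brains, against 39.5, 42.6 and 28.1 CPM in wild-type brains, which overlapped.

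At 24 hpf pink1 was scarce, with 101, 123 and 112 counts in sgsh embryos, against 130, 142 and 188 counts in wild-type embryos. The log2 fold change was -0.43 (SE 0.13, adjusted p = 0.022, edgeR). This call was lost with DESeq2's Wald test (adjusted p = 0.081), without sgsh replicate 1 (edgeR, 0.075), without sgsh replicate 3 (edgeR, 0.059) and without wild-type replicate 3 (edgeR, 0.19, log2 fold change -0.25). At 5 dpf its log2 fold change was -0.03 (95% interval -0.15 to 0.08, adjusted p = 0.73, edgeR).

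**Figure D2:**
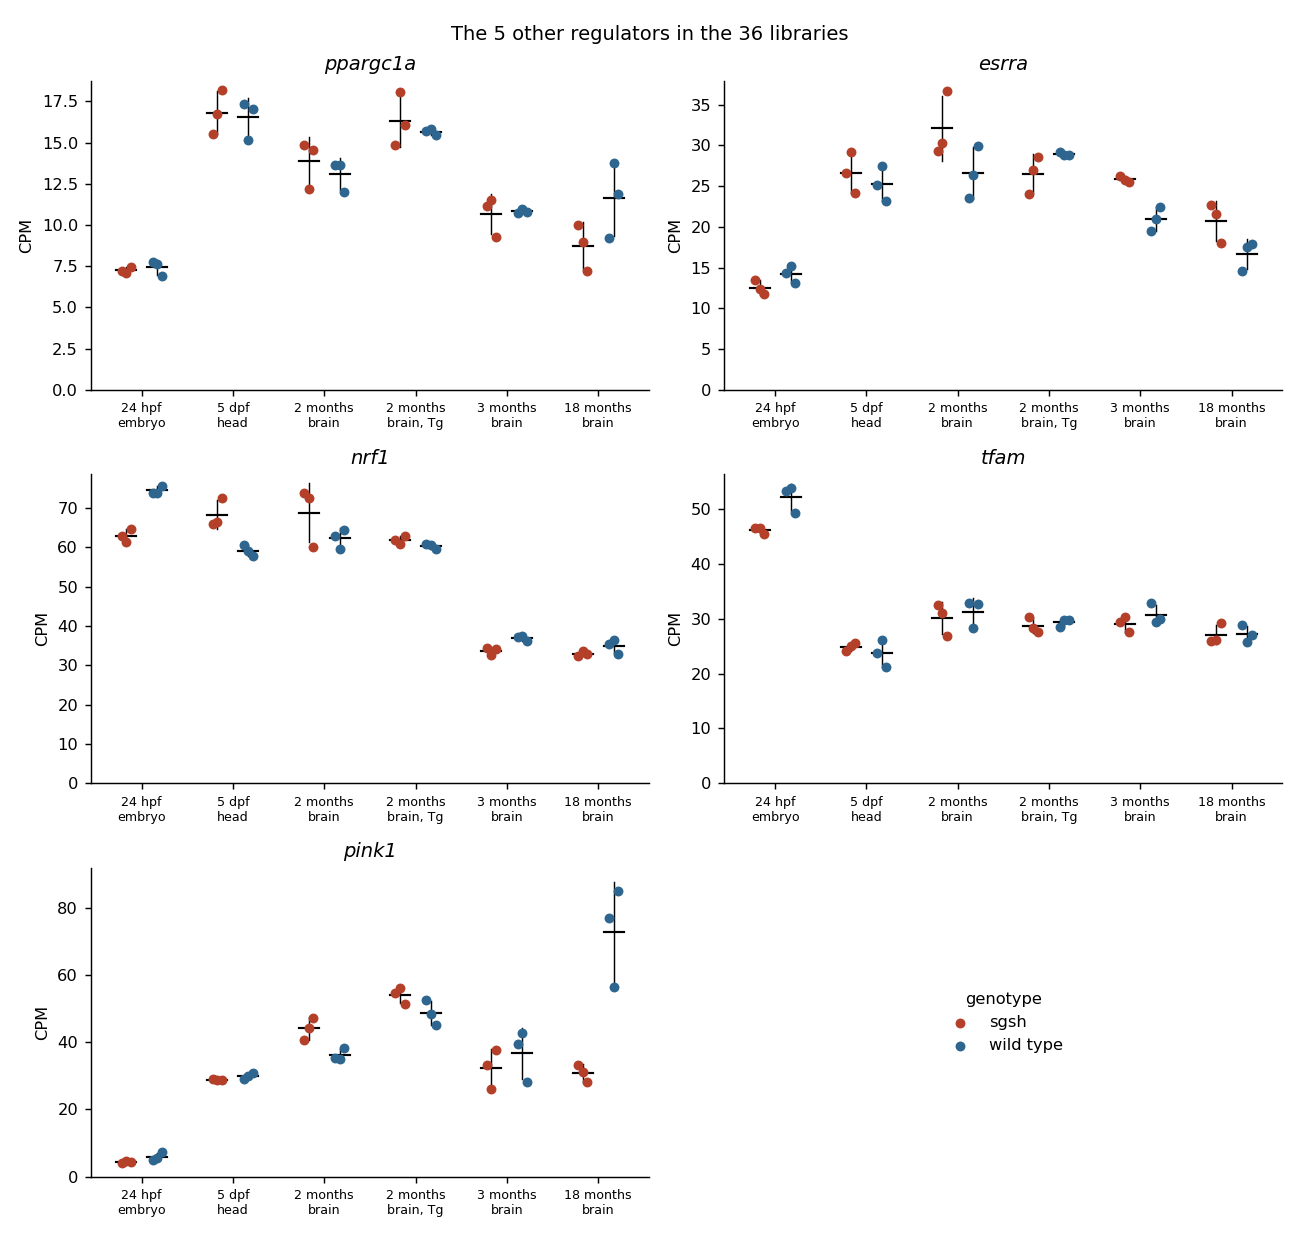
ppargc1a, esrra, nrf1, tfam and pink1 in CPM (vertical axes, from 0) in the 36 libraries by stage, with sgsh left of wild type, Tg marking the sgsh transgene. Points are libraries, horizontal lines means and vertical lines 1 SD (n = 3). The wild-type brains of 18 months stand out for pink1, at 56.4 to 85.0 CPM against 28.1 to 33.3 CPM in sgsh brains.

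In sum over the 6 genes, 3 were called in 24 hpf embryos, all lower in sgsh, where 21.7% of the 20175 tested genes were called in either direction. At 5 dpf 1 was called, nrf1, against 14.4% of all genes. In 2-month brains edgeR called 0 of the 6, against 0.841% of all genes, with 2 at an unadjusted p under 0.05 (esrra and pink1), and DESeq2 also called 0. There 2231 of all 19749 tested genes had an unadjusted p under 0.05. Between sgsh and wild-type brains that both carried the transgene, edgeR and DESeq2 called 0 of the 6 and 0 had an unadjusted p under 0.05. Here 0.0304% of all genes were called, and 1253 of 19749 had an unadjusted p under 0.05.

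**Figure D3:**
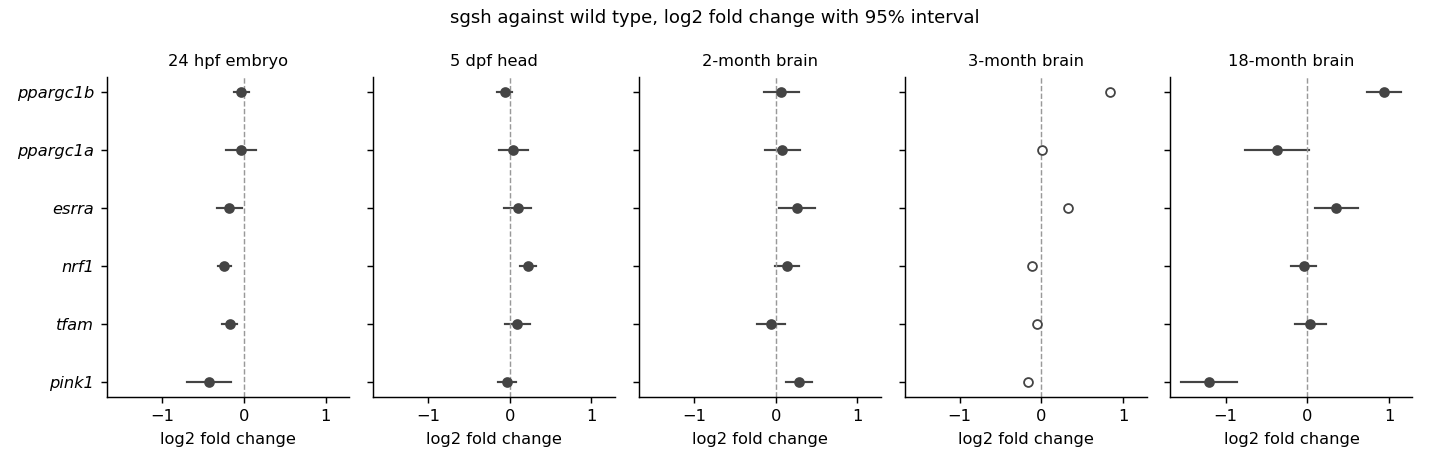
Log2 fold change of sgsh over wild type (horizontal axes) of the 6 genes in the 5 pairs of groups without the transgene, from edgeR fits of 6 libraries, or of 12 at 2 months. Lines are 95% intervals; the 3-month values, open points, are a description and have none. At 18 months ppargc1b lies at 0.94 and pink1 at -1.20.

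The ages 3 and 18 months can be compared within 1 table, as a description because the 3-month libraries took part in the choice of the genes. pink1 was higher in 18-month than in 3-month wild-type brains, with 77.0, 56.4 and 85.0 CPM against 39.5, 42.6 and 28.1 CPM, a log2 fold change of 1.00 (SE 0.18). In sgsh brains its log2 fold change with age was -0.05 (SE 0.18). esrra was lower at 18 than at 3 months in both genotypes, by a log2 fold change of -0.30 (SE 0.10) in sgsh and -0.32 (SE 0.10) in wild type, without overlap in either, where 34.7% of all tested genes in sgsh and 41.7% in wild type did not overlap. ppargc1b had a log2 fold change with age of -0.05 (SE 0.09) in sgsh and -0.14 (SE 0.09) in wild type, with overlap in both. These contrasts share libraries with those between the genotypes. With age, 3 of 4 oligodendrocyte markers were called lower in sgsh (median log2 fold change -0.57) and 4 of 4 in wild type (-0.66), while of 5 microglia markers 4 were called higher in sgsh, and 2 higher and 1 lower in wild type. Of 4 radial glia markers 1 was called lower in sgsh and 2 in wild type. The part of these cells in the differences with age was not tested. Over all tested genes, 19.5% were called with age in sgsh and 20.8% in wild type.

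With the transgene pink1 was higher in both genotypes, and ppargc1b was not called in either. pink1 had 54.6, 56.1 and 51.3 CPM in transgenic sgsh brains, against 40.6, 44.3 and 47.3 CPM in sgsh brains without it. The log2 fold change was 0.30 (SE 0.07, adjusted p = 0.012, edgeR), and without replicate 1 of the sgsh brains that lacked the transgene the adjusted p of edgeR was 0.052. In wild type, pink1 had 52.5, 48.5 and 45.1 CPM in transgenic brains, against 35.2, 34.9 and 38.4 CPM in brains without it, a log2 fold change of 0.43 (SE 0.07, adjusted p = 0.0020, edgeR). Neither pair of groups overlapped, as was the case for 32.9% of all tested genes in sgsh and 37.4% in wild type. In each genotype pink1 was the 1 of the 6 genes that was called, against 18.4% of all genes in sgsh and 15.2% in wild type.

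ppargc1b had 106, 121 and 124 CPM in transgenic sgsh brains, against 122, 117 and 133 CPM in sgsh brains without the transgene, with a log2 fold change of -0.07 (95% interval -0.28 to 0.14, adjusted p = 0.67, edgeR). In wild type it was 0.14 (95% interval -0.07 to 0.35, adjusted p = 0.38, edgeR). ppargc1a was 0.24 higher on the log2 scale with the transgene in sgsh (adjusted p = 0.0999, edgeR) and 0.26 higher in wild type (adjusted p = 0.089, edgeR), without passing the test. In a fit of the 6 wild-type libraries alone its adjusted p of edgeR was 0.046. esrra had 24.0, 27.0 and 28.6 CPM in transgenic sgsh brains, against 29.3, 30.3 and 36.7 CPM in sgsh brains without the transgene, which did not overlap (log2 fold change -0.26, adjusted p = 0.093, edgeR). With the replicate as a block its adjusted p of edgeR was 0.038. nrf1, at -0.14 in sgsh (adjusted p = 0.16, edgeR), reached an adjusted p of 0.0075 without replicate 3 of the sgsh brains that lacked the transgene. The interaction of genotype and transgene called 0 of the 6 genes by edgeR and by DESeq2, where edgeR called 0.127% of all genes. At an unadjusted p under 0.05 there was 1, esrra, against 1924 of all 19749 tested genes. The genotype and transgene contrasts of 2 months share libraries.

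**Figure D4:**
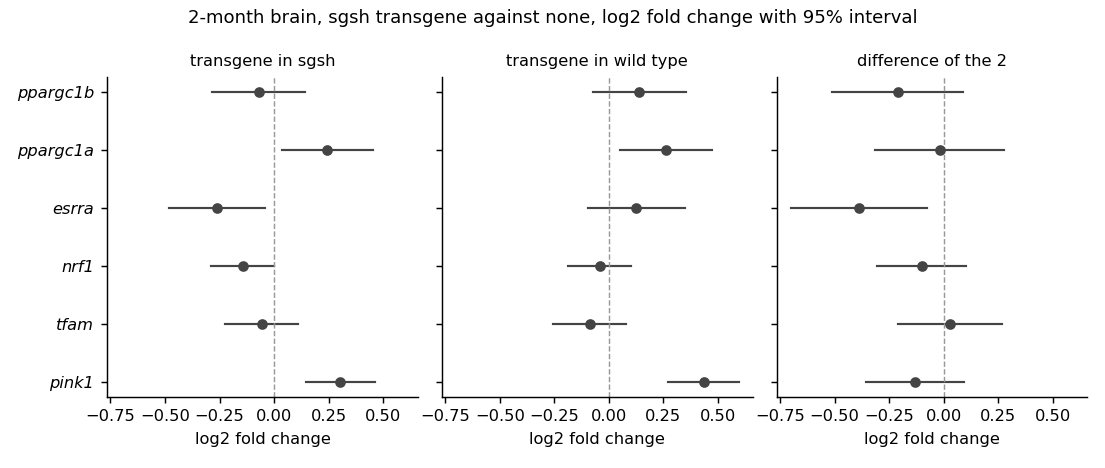
Log2 fold change of transgenic over non-transgenic 2-month brains (horizontal axes) of the 6 genes in sgsh and in wild type, and the difference of these changes, sgsh minus wild type. Lines are 95% intervals from 1 edgeR fit of 12 libraries. pink1 lies at 0.30 in sgsh and 0.43 in wild type.

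Of the genes with a mean of at least 1 CPM, those whose level followed ppargc1b most closely over the 12 group means, by Pearson's r of log2(CPM + 0.5), were usp2b (r = 0.981), hsd20b2 (0.9748), RASSF9 (0.946), si:dkey-201c13.2 (0.925) and BAIAP2 (0.919), among 20135 genes. The points are group means that share tables and ages, and no test was made. They include the 3-month groups by which ppargc1b was chosen, so the levels below are a description. hsd20b2, which in zebrafish encodes a steroid dehydrogenase of cortisol breakdown, averaged 39.5 and 43.4 CPM in sgsh brains at 3 and 18 months, against 14.3 and 12.4 CPM in wild-type brains. usp2b, a ubiquitin-specific protease gene, averaged 26.1 and 24.0 CPM in sgsh brains of these ages, against 14.6 and 14.0 CPM in wild-type brains. At 18 months the usp2b pools overlapped, at 17.6 to 27.7 CPM in sgsh and 6.93 to 20.2 CPM in wild type. Of the other 5 genes, esrra came closest over the group means (r = 0.690), before pink1 (0.640) and ppargc1a (0.357), while nrf1 (-0.546) and tfam (-0.719) ran opposite.

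Over the 24 adult brain libraries, after the mean of each age was subtracted, the closest of 18296 genes were BAIAP2 (r = 0.957), pard6a (0.944), ULK2 (0.944), zgc:77158 (0.933) and wbp1lb (0.926). esrra had r = 0.751 (position 248), and pink1 r = -0.641. Genotype was not subtracted, and the 3-month libraries by which ppargc1b was chosen took part. This ranking therefore favours genes that differ between sgsh and wild type in the same libraries, and is a description. ULK2 encodes a kinase that starts autophagy. It averaged 138 and 156 CPM in sgsh brains at 3 and 18 months, against 98.2 and 93.3 CPM in wild-type brains. BAIAP2 was the one gene among the 5 closest in both rankings, with 69.2 and 59.6 CPM in sgsh brains, against 24.5 and 19.1 CPM in wild-type brains.

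Around the 6 genes, 6 further lists were followed: 23 other regulators of biogenesis, 14 genes that maintain or transcribe mitochondrial DNA, 20 of mitophagy and mitochondrial dynamics, 31 metabolic targets of the coactivators, 96 nuclear subunits of oxidative phosphorylation and the 13 proteins encoded by the mitochondrial genome. At 18 months 7 of the 189 tested genes of these lists were called, 5 higher and 2 lower, or 3.70%, against 6.72% of all genes. DESeq2 called 14 of them, and 74 of them had an unadjusted p under 0.05, against 5788 of all 20116 tested genes. The list genes had a median log2 fold change of 0.15, against 0.00 for all tested genes. Of the 30 tested metabolic targets, ucp2 and pdk4 were called, both higher. ucp2, an inner membrane carrier, averaged 23.7 CPM in sgsh and 6.61 CPM in wild-type brains (log2 fold change 1.89, adjusted p = 0.0064, edgeR). pdk4, the kinase that shuts off pyruvate dehydrogenase, averaged 15.1 CPM in sgsh and 8.96 CPM in wild-type brains (log2 fold change 0.79, adjusted p = 0.036, edgeR).

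The nuclear subunits of oxidative phosphorylation had a median log2 fold change of 0.17 at 18 months over 92 tested genes. Of these, 3 were called higher and 1 lower, 4.35%, against 6.72% of all genes. Named by their size of change, cox5b2 of complex IV (log2 fold change 0.92) and ndufs6 of complex I (0.40) were higher, and ndufa9b (-1.85, at 0.357 CPM in sgsh and 1.34 CPM in wild type) was lower. In mitophagy and dynamics 1 gene of 20 was called, 5%, against 6.72% of all genes. This was bnip3la, a receptor on the outer membrane, with 23.3 CPM in sgsh and 36.4 CPM in wild-type brains (log2 fold change -0.60, adjusted p = 0.0499, edgeR). Of the 20 tested other regulators, the 14 genes of mitochondrial DNA and the 13 mitochondrially encoded proteins, edgeR called 0 in each list. At an unadjusted p under 0.05 there were 5, 4 and 5, against 5788 of all 20116 genes, and DESeq2 called 1, 0 and 2.

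At 3 months 6 of 191 list genes were called, 3.14%, against 2.89% of all genes. This is the contrast by which ppargc1b was chosen, and the lists were chosen with earlier results known, so these calls are a description. Of the metabolic targets they were ucp2 (log2 fold change 0.98, 18.1 CPM in sgsh and 9.29 CPM in wild type) and pdk4 (0.71, 9.28 CPM in sgsh and 5.76 CPM in wild type). pparaa, a fatty acid receptor of the liver and other tissues, fell (-0.46). Of the 13 mitochondrially encoded genes 3 (23.1%) were called, all higher, by up to 0.33 for mt-nd4l. Among these 13 genes 12 had an unadjusted p under 0.05 and DESeq2 called 6, with a median log2 fold change of 0.18. Of the 93 tested nuclear subunits edgeR called 0, with 13 at an unadjusted p under 0.05 and 3 called by DESeq2. At 3 months 3479 of all 19922 tested genes had an unadjusted p under 0.05. At 2 months 0 of 194 list genes were called by edgeR or DESeq2, with 16 at an unadjusted p under 0.05, where edgeR called 0.841% of all genes. Of all 19749 tested genes, 2231 had an unadjusted p under 0.05 at this age.

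In the interaction of 18 and 2 months 5 of 191 list genes were called (2.62%, against 3.71% of all genes). These were ucp2 (1.83), cox5b2 (1.24) and mt-nd1 (0.46), with a larger sgsh difference at 18 months, and pdk2b (-1.21) and creb1b (-0.68), with a lower one. ucp2 averaged 39.8 CPM in sgsh and 38.6 CPM in wild-type brains at 2 months.

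In 24 hpf embryos 46 of 188 list genes were called, 24.5%, against 21.7% of all genes. The metabolic targets stood at 14 higher and 2 lower of 31, beside skeletal muscle markers that were also higher (all 4 called), whose part in this was not tested. slc25a4, the ADP/ATP carrier, had 63.2 CPM in sgsh and 34.1 CPM in wild-type embryos (log2 fold change 0.89, adjusted p = 5.3e-10, edgeR), and cpt2, of fatty acid import, rose by 0.48. fh, fumarate hydratase, fell by 0.33 and suclg2, of succinyl-CoA ligase, by 0.31. Of the 22 tested other regulators 2 rose and 4 fell, 27.3% in all. Among them gabpa, the partner factor also called nuclear respiratory factor 2, had 54.5 CPM in sgsh and 69.9 CPM in wild-type embryos (log2 fold change -0.36, adjusted p = 6.5e-07, edgeR). Of the 14 genes of mitochondrial DNA 3 were called, 21.4%, against 21.7% of all genes, and the median log2 fold change was 0.02. polg (-0.32) and twnk (-0.30), polymerase and helicase of this DNA, were lower, and the protease gene lonp1 was higher (0.24). Of the 20 mitophagy and dynamics genes 4 rose and 1 fell, 25% in all: usp30 (0.93), opa1 (0.33) and 2 others rose, and optn (-0.18) fell.

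In 5 dpf heads 30 of 194 list genes were called, 15.5%, against 14.4% of all genes. Of the 94 tested nuclear subunits 11 were called, 11.7%, against 14.4% of all genes, and DESeq2 called 4. All 11 were higher, by a log2 fold change of at most 0.21 (cox5ab). Of the 13 mitochondrially encoded genes 3 were called, and DESeq2 also called 3. All 3 called by edgeR were lower, with mt-cyb at -0.39. Of the 31 metabolic targets 7 were called higher, with fh (0.73) and cpt1ab (0.27) in front, and 3 lower, among them ucp2 (-0.52) and pdk2b (-0.42). fh, like nrf1, was thus called in opposite directions in embryos and heads, and this difference was not tested.

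**Figure D5:**
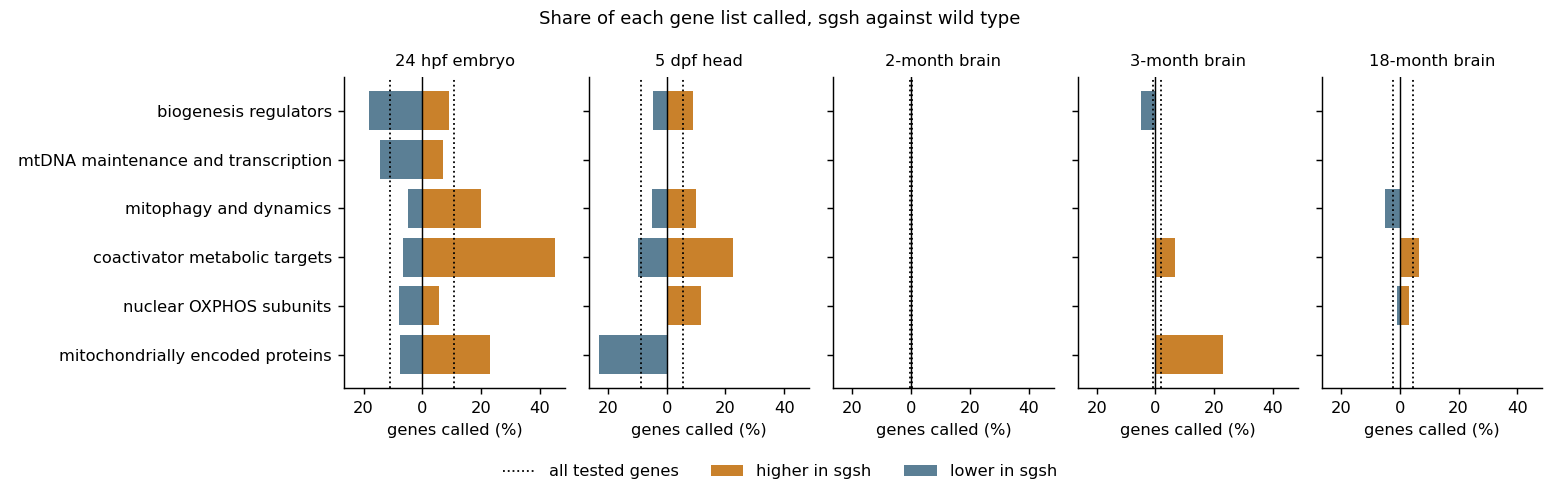
Share of the tested genes of 6 mitochondrial gene lists that edgeR called (horizontal axes, percent; right of 0 higher and left of 0 lower in sgsh than in wild type) in the 5 pairs of groups without the transgene. Dotted lines are the shares over all tested genes. In 24 hpf embryos 14 of 31 metabolic targets were higher; at 2 months the 6 lists held no call.

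With the transgene, 43 of 194 list genes were called in sgsh brains, 22.2%, against 18.4% of all genes, and 30 in wild-type brains, 15.5%, against 15.2%. pparab rose in both, by 0.92 in sgsh and 1.105 in wild type, as did sqstm1 of mitophagy (0.47 and 0.51) and sdha of complex II (0.43 and 0.33). primpol fell in both (log2 fold change -1.63 in sgsh and -1.06 in wild type), and so did cpt1b (-0.84 in sgsh and -1.01 in wild type) and ucp2 (-0.79 in sgsh and -0.57 in wild type). Of the 31 metabolic targets in sgsh brains 6 were called higher and 4 lower. The largest called rises were those of slc25a4 (log2 fold change 3.15, SE 0.97) and fh (2.16, SE 0.54). Skeletal muscle markers, none called, summed to 12.2 to 478 CPM in these brains, against at most 36.4 CPM without the transgene. Their part in these rises was not tested. With age, 18 against 3 months, 38 of 191 list genes were called in sgsh brains, 19.9%, against 19.5% of all genes, and 53 in wild-type brains, 27.7%, against 20.8%. These calls use the 3-month libraries and are a description too. Of the 13 mitochondrially encoded genes 10 were higher at 18 months in sgsh and 9 in wild type. Of the 93 nuclear subunits 8 were higher and 0 lower in sgsh, and 6 were higher and 16 lower in wild type; whether this differs between the genotypes was not tested. prkn, which encodes Parkin, the partner of Pink1, rose in both, by 0.63 in sgsh and 0.78 in wild type.

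Markers of other cells moved in some of these contrasts. At 18 months the summed level of 4 pigment cell markers, all detected, was 84.2 to 123 CPM in sgsh and 7.85 to 11.4 CPM in wild-type brains, and 3 of the 4 were called higher. At 2 months, where ppargc1b was not called, it was 51.3 to 70.7 CPM in sgsh and 16.1 to 18.9 CPM in wild-type brains, and again 3 were called higher. At 3 months it was 101 to 137 CPM in sgsh and 9.12 to 13.3 CPM in wild-type brains, with all 4 called higher, and 3 of 6 red blood cell markers were called lower (summed 276 to 291 CPM in sgsh and 419 to 660 CPM in wild type). Summed microglia markers did not overlap either (288 to 311 CPM in sgsh and 234 to 262 CPM in wild type). Nor did endothelium (59.65 to 74.0 and 55.5 to 57.1 CPM) or pineal and retina (158 to 187 and 126 to 152 CPM). Oligodendrocyte markers were lower (9858 to 10160 and 10410 to 11430 CPM), and at 2 months too (7029 to 7937 and 8756 to 9238 CPM). Radial glia markers were lower at 2 months (3138 to 3987 and 4098 to 4190 CPM). The endothelial markers kdrl and cdh5 summed to 72.3 to 76.5 CPM in sgsh and 44.5 to 53.4 CPM in wild-type brains at 18 months, and both were called higher. The 7 neuron markers summed to 7052 to 7443 CPM in sgsh and 7345 to 7559 CPM in wild-type brains of 18 months, with 1 called higher, the 4 oligodendrocyte markers had no call, and of 5 microglia markers apoeb alone was called, higher, with a sum of 327 to 362 CPM in sgsh and 204 to 232 CPM in wild-type brains. The 4 radial glia markers summed to 3538 to 3819 CPM in sgsh and 3006 to 3202 CPM in wild-type brains of 18 months, with 1 called higher. The part of these cells in the levels of ppargc1b and pink1 was not tested. Over all tested genes, 6.72% were called at 18 months, 2.89% at 3 months and 0.841% at 2 months. Pools did not overlap for 33.8%, 25.2% and 15.5% of all tested genes at these ages.

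In 24 hpf embryos all 4 skeletal muscle markers were called higher, with 5548 to 5979 CPM in sgsh and 4052 to 4511 CPM in wild-type embryos, and their part in the lower nrf1, tfam and pink1 was not tested. In 5 dpf heads 3 of 5 microglia markers were called lower (summed 553 to 607 CPM in sgsh and 651 to 737 CPM in wild type). In 2-month sgsh brains the transgene went with lower pigment markers (9.40 to 23.6 CPM with it, against 51.3 to 70.7 CPM without it) and with red blood cell markers of which 4 of 6 were called lower and 1 higher (summed 512 to 594 CPM, against 957 to 1150 CPM), and in wild type with 3 of 6 red blood cell markers lower (summed 477 to 731 CPM, against 926 to 1665 CPM). The 4 skeletal muscle markers, none called, summed to 12.2 to 478 CPM in sgsh brains with the transgene, against at most 36.4 CPM without it. With the transgene 2 of 4 radial glia markers were called lower in each genotype (summed 3003 to 3185 CPM with it, against 3138 to 3987 CPM without it in sgsh, and 2847 to 3089 CPM with it, against 4098 to 4190 CPM without it in wild type). Of 7 neuron markers 3 were called higher in each genotype. Summed endothelium markers were lower with the transgene in both genotypes, without overlap. They had 71.5 to 80.8 CPM, against 88.9 to 94.5 CPM, in sgsh and 70.7 to 80.4 CPM, against 88.2 to 91.5 CPM, in wild type. Pineal and retina markers were lower with it in wild type (99.9 to 162 CPM, against 180 to 244 CPM) and overlapped in sgsh. Of 4 oligodendrocyte markers 2 were called higher in sgsh and 1 in wild type, and of 5 microglia markers 3 were called higher in sgsh. The part of these cells in pink1 and in the list genes was not tested. Over all tested genes, 21.7% were called at 24 hpf and 14.4% at 5 dpf. With the transgene the share was 18.4% in sgsh and 15.2% in wild type.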

How the data were processed

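The authors deposited raw read counts per gene for 36 libraries, from paired-end sequencing of 150-base reads. The deposited files name STAR and featureCounts. Per the file headers, featureCounts 2.0.1 counted the 5 dpf and 2-month libraries as reverse-stranded and dropped reads of mapping quality under 10. The strand setting of the table holding 24 hpf, 3 months and 18 months is not stated. The methods describe the 3-month brains and name HISAT2, Bowtie2 and Salmon, not the counter of these tables.

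Groups follow the labels. In R 4.3.3 with edgeR 4.0.16, filterByExpr kept genes (count of at least 10, total of at least 15), TMM factors scaled the libraries, and quasi-likelihood p-values were adjusted by Benjamini-Hochberg and called under 0.05. Fits held the 6 libraries of a stage, or the 12 libraries of 2 months, of 3 and 18 months, or of 18 and 2 months (added after seeing the data). Standard errors are the absolute log2 fold change over the square root of F. Alternatives were RLE factors, DESeq2 1.42.0, no filter, a replicate block, each library left out, 6-library fits at 2 months, a joint fit of 3 and 18 months, and TMM over 36 libraries. The scripts were tested on simulated data. No library duplicated another of its group.

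The 6 genes and the lists were chosen with earlier results of these data known. Beyond the 6 genes and sgsh, the text draws names from, per list, comparison and direction, the 2 called genes of largest change, and the 5 genes most like ppargc1b in each ranking. Of the list symbols, 23 of 26, 14 of 15, 19 of 20, 30 of 32, 96 of 96 and 13 of 13 were matched, a symbol sometimes to more than 1 ID. No sequences are shown. Counts limit precision: pink1 had 101 to 188 counts per library at 24 hpf, while ppargc1b had 1642 or more in every library.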

Additional observations from a re-analysis of the deposited data

Results flagged for a closer look

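ppargc1b and pink1 differed between ages in their genotype contrast by a test of the difference itself, which was added after the data were seen. The log2 fold change of sgsh over wild type at 18 months minus that at 2 months was 0.85 for ppargc1b (adjusted p = 0.015, edgeR) and -1.5 for pink1 (adjusted p = 0.0024, edgeR). These ages come from separately counted tables, and age and table cannot be told apart.

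In other pairs of contrasts, every sgsh library lay above wild type in one and below it in the other, and the difference was not tested. For nrf1 the log2 fold change at 5 dpf exceeded that at 24 hpf by 0.47 and that at 3 months by 0.33. For pink1 the value at 2 months exceeded that at 24 hpf by 0.71. For esrra the values at 3 and 18 months exceeded that between the transgenic brains of 2 months, where all sgsh pools lay below wild type, by 0.45 and 0.48. Those transgenic pools lay close, at 24.0 to 28.6 CPM in sgsh and 28.8 to 29.1 CPM in wild type. Their log2 fold change was not called (-0.12, 95% interval -0.34 to 0.10, adjusted p = 0.92, edgeR). Over all tested genes, the share whose pools did not overlap was 36.2% at 24 hpf, 31.4% at 5 dpf, 15.5% at 2 months, 13.7% between transgenic brains, 25.2% at 3 months and 33.8% at 18 months.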

How the results depend on the processing

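The 6 genes gave 324 log2 fold changes under another normalization, filter, tool, block or set of libraries, and 320 were counted as the same. With 1 library left out, 714 of 720 were. For tested contrasts, same means the same side of the threshold, and no value called in either fit changed sign. Uncalled values could change sign and still count, as ppargc1b at 2 months did (-0.04 to 0.18 with 1 library left out). For contrasts with 3-month libraries, same means a shift of less than the SE times the square root of 3. Such a shift could exceed the SE. DESeq2's Wald test lost the call of pink1 at 24 hpf (log2 fold change -0.43, adjusted p = 0.081). With 1 library left out, the log2 fold change ran from -0.54 to -0.25 for pink1 and from -0.21 to -0.15 for tfam at 24 hpf, and from 0.25 to 0.36 for pink1 with the transgene in sgsh. The ratio of the highest to the lowest group mean of ppargc1b was 2.90, or 2.82 with scaling over 36 libraries, under which 23 of 72 group levels moved by more than their SD.

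The counts of called genes depended more on the setting. DESeq2 called 2590 genes at 24 hpf (edgeR 4369), 1872 at 5 dpf (3110), 2101 at 18 months (1352), 274 at 2 months (166), 24 between transgenic brains (6), 109 in the interaction with the transgene (25) and 1340 in that with age (765). A joint fit of 3 and 18 months called 292 at 3 months (576) and 3711 at 18 months. Fits of 6 libraries called 94 at 2 months and 12 between transgenic brains. Without a filter the transgene interaction had 51 calls. With 1 library left out, the counts ran from 2001 to 3038 at 5 dpf, 172 to 469 at 3 months, 189 (without sgsh replicate 2) to 3453 (without sgsh replicate 1) at 18 months, 77 to 169 at 2 months, 2 to 18 between transgenic brains, 1795 to 3787 for the transgene in wild type, 3 to 31 for its interaction, 2318 to 5019 and 2655 to 4824 for age in sgsh and wild type, and 312 to 2265 for the interaction with age. The cause was not tested.

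Whether the replicate numbers pair libraries of different groups is not settled. Correlations between same-numbered libraries ran from -0.37 to 0.19, and no comparison had all 3 over 0.1. At 5 dpf (0.03 to 0.14) and in 2-month brains without the transgene (0.04 to 0.07), every sgsh library matched the same-numbered wild-type library best. With the replicate as a block, fewer genes were called at 18 months (290, against 1352) and in the interaction with age (486, against 765). More were called at 3 months (809, against 576) and at 5 dpf (3490, against 3110). At 18 months ppargc1b then had a log2 fold change of 0.95 (adjusted p = 0.021, edgeR) and pink1 -1.18 (0.032). Among the 6 genes the block changed 1 call, that of esrra with the transgene in sgsh (-0.26, adjusted p = 0.038, edgeR).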
